A study of Homo sapiens with 2 samples.

Results

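The expression of 10 genes of glucose uptake and glycolysis was followed in human lung adenocarcinoma cells that carried an FDFT1 vector and in the same cells with a control vector. They are SLC2A1, HK1, HK2, PFKM, PFKFB3, PFKFB4, ENO1, PKM, LDHA and PDK1, and every probe set that the array annotation assigns to 1 of these symbols was kept and treated separately. This gave 20 probe sets of the 54675 on the array, for 10 of the 19775 genes named by the annotation, and 0 of the probe sets with several annotated genes included any of them. One array held RNA of CL1-0 cells expressing FDFT1, which encodes squalene synthase, the enzyme that commits the mevalonate pathway to sterols. The other array held RNA of CL1-0 cells expressing a control vector. Both lines were stably transduced, selected with puromycin for 2 weeks and grown at 37 °C in 5% CO2. The labels name neither the promoter that drives FDFT1 in the vector nor whether each line was a clone or a pool.

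Glycolysis splits glucose into pyruvate in the cytosol and yields ATP without oxygen. Transporters bring glucose into the cell, hexokinases trap it by phosphorylation, phosphofructokinase commits it to breakdown, and the lower enzymes lead to pyruvate. Pyruvate is reduced to lactate or enters the mitochondria, where pyruvate dehydrogenase oxidises it. Many tumours, lung adenocarcinomas among them, take up much glucose and release lactate even with oxygen present. Hypoxia-inducible factor, MYC and AKT signalling are known to raise transcripts or activity of several of these proteins.

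Each of the 2 groups had 1 array, so the differences carry no p-value and no replicate error; they compare these 2 arrays. The deposited values are MAS5 signals, a linear brightness per probe set. The median over all probe sets other than array controls was 12.1 on the FDFT1 array and 12.3 on the control array, and the upper quartiles were 95.4 and 104. A difference below is log2 of the FDFT1 signal over the control signal after centring, which removes a shift of -0.11 between the arrays. A probe set was measured if at least 1 of its signals, after this scaling, reached a floor of 12.2, the median of all signals. The only error the arrays give is how far probe sets of 1 gene differ from each other. This probe-set error falls with signal. On the log2 scale it was 0.50 where the mean log2 signal was under 5, and 0.31 between 5 and 7. It was 0.22 between 7 and 9, 0.16 between 9 and 11, and 0.10 beyond that. It leaves out variation between cultures. The level of FDFT1 was not analysed here, which leaves the vector's effect on its own gene unchecked. The label names type II alveolar cells, but of 10 type II markers 5 were measured, with signals from 16.9 to 58.8 on the FDFT1 array and from 29.3 to 79.9 on the control array. SFTPD, NAPSA and SLC34A2 stayed below the floor on both arrays. Of 6 epithelial markers 4 were measured, EPCAM, KRT7, KRT8 and KRT18, all at signals close to the floor. They ran from 12.1 to 19.3 with FDFT1 and from 5.63 to 20.1 with control vector, where EPCAM lay below the floor. The summed signals over all 6 were 73.7 with FDFT1 and 68.8 with control vector, and CDH1 and KRT19 lay below the floor on both arrays. Of 16 blood, fibroblast and endothelial markers 8 were measured; the summed signals were 93.4 with FDFT1 and 90.8 with control vector for blood markers, and 147 and 130 for fibroblast and endothelial markers. PTPRC, CD14, COL3A1, VWF and CDH5 stayed below the floor on both arrays. Both arrays held RNA of the same cell line in culture, so these signals are not read as a sign of other cells. What they reflect was not tested.

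Most of the 16 measured probe sets of the members differed little between the arrays, and 3 lay more than 2 probe-set errors from 0. SLC2A1, the glucose transporter GLUT1, had the highest difference of the 16 measured probe sets, at 0.88 (1.84-fold higher with FDFT1). PFKFB4, a bifunctional enzyme that sets the level of fructose 2,6-bisphosphate, had the lowest at -0.78, and PKM, the muscle-type pyruvate kinase, was at -0.51. A dim PDK1 probe set at -0.47 was almost as low as PKM but stayed within 2 errors. No measured probe set was at least 2-fold higher or lower, where 0.917% of all 29891 measured probe sets were at least 2-fold higher and 0.806% at least 2-fold lower. At 1.5-fold, 1 member probe set was higher (5.63% of all) and 1 was lower (4.63% of all). Differences above 2 probe-set errors were found for 3 of the 16, against 6.93% of all measured probe sets, while 9 of the 16 lay within 1 error (67.4% of all). The median over the members was 0.04, with 10 above 0 and 6 below; over all measured probe sets it was 0.00. As deposited, without centring, the split was 4 above 0 and 12 below (75%), where 64.48% of all measured probe sets were below 0. In such bulk RNA, fewer cells with a transcript and less of it per cell cannot be told apart.

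**Figure D1:**
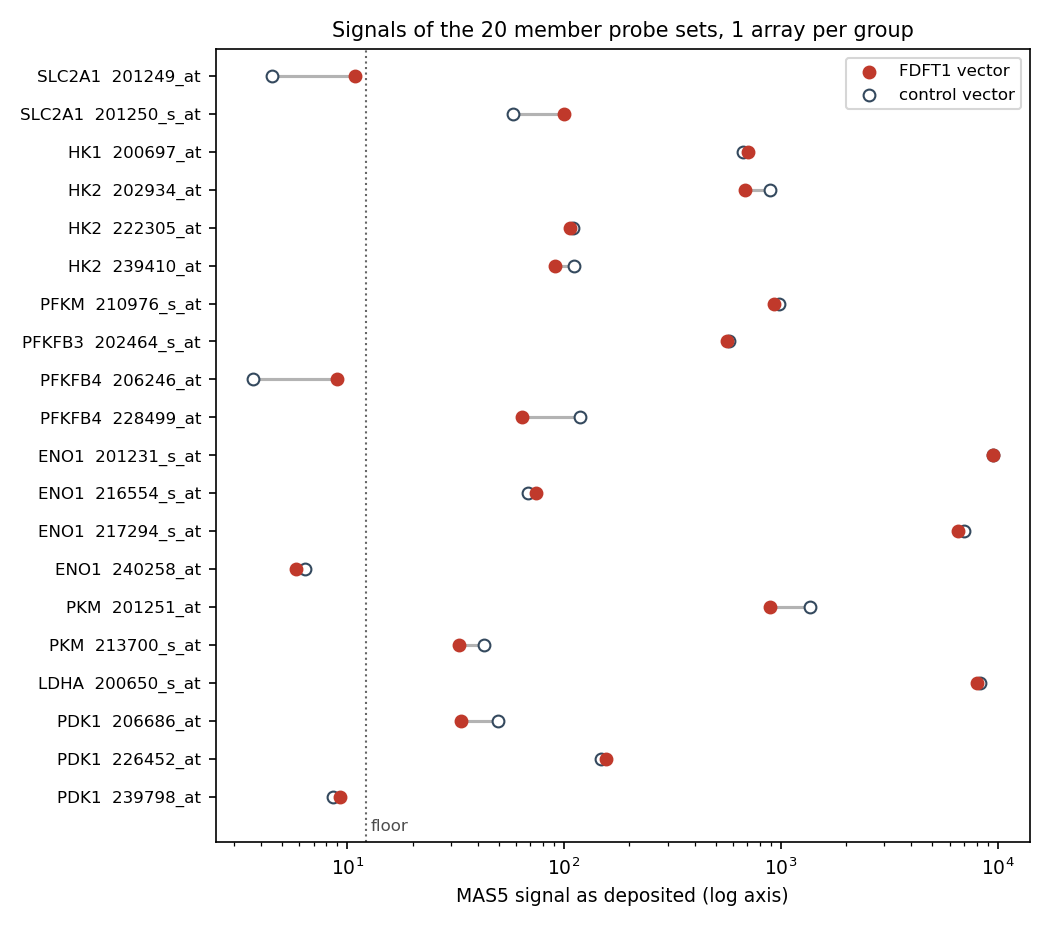
MAS5 signals as deposited (log axis) of the 20 probe sets of the 10 genes, with the FDFT1 array in filled red and the control array in open circles, joined by a line; the dotted line is the floor of 12.2. The lines are long for SLC2A1, PFKFB4 and PKM 201251_at and short for LDHA and the bright ENO1 probe sets, and 4 probe sets lie below the floor on both arrays.

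**Figure D2:**
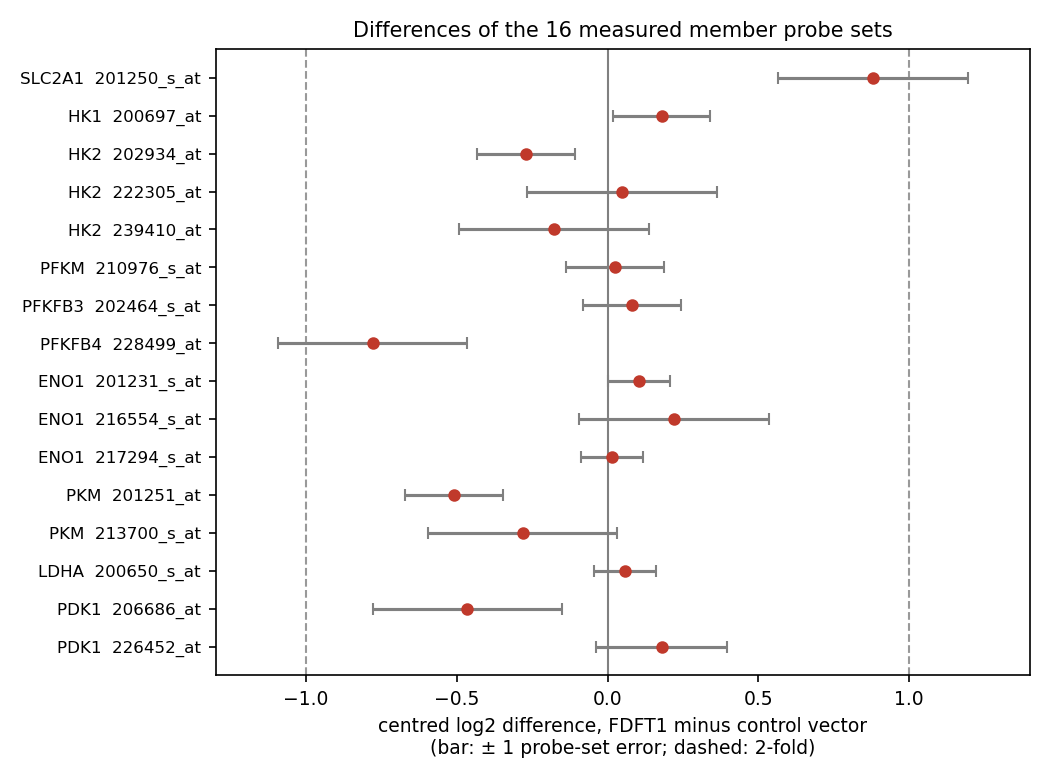
Centred log2 differences (FDFT1 minus control vector) of the 16 measured probe sets, with bars of 1 probe-set error to each side and dashed lines at 2-fold. SLC2A1 at 0.88, PFKFB4 at -0.78 and PKM at -0.51 lie more than 2 errors from 0.

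The promoters of the 3 genes with the differences above 2 errors, and that of LDHA for comparison, are shown because hypoxia-inducible factor is known to act on many glycolytic genes through a short core sequence. Each line gives the 250 bases before a start site, 5′ to 3′ on the strand of the gene, from the RefSeq promoter table (GRCh38.p14). Capitals mark ACGTG or GCGTG on either strand, so CACGT and CACGC are their reverse complements; the E-box CACGTG holds ACGTG on both strands and overlaps it. The windows are chr1:42958869-42959118 on the minus strand for SLC2A1, chr3:48556804-48557053 on the minus strand for PFKFB4, chr15:72231191-72231440 on the minus strand for PKM and chr11:18394313-18394562 on the plus strand for LDHA.
SLC2A1: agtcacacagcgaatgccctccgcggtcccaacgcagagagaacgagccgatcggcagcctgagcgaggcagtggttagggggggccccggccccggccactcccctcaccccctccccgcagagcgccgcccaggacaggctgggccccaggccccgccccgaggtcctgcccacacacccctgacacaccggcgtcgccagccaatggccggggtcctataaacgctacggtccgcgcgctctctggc
PFKFB4: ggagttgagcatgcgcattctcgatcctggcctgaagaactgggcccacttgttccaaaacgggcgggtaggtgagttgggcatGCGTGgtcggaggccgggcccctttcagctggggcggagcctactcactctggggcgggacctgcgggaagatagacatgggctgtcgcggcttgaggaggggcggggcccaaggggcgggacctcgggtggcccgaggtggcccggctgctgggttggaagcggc
PKM: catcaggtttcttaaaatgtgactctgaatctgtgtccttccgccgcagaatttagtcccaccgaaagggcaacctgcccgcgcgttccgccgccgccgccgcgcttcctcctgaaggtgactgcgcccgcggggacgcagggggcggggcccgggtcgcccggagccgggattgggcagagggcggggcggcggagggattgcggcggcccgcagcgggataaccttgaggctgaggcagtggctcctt
LDHA: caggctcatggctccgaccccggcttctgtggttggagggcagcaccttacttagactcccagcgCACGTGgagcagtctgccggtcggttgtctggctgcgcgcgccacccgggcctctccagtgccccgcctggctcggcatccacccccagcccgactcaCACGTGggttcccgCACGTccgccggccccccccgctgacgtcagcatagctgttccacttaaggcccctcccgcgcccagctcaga

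All 10 genes matched the promoter table, with 26 start sites in all, of which some overlap. A core in either form was found at 11 of these 26 windows (42.3%), against 43.2% of all 35116 windows of the same length in the table. LDHA has 2 start sites in the table, and the window shown is the richer in matches: it had 5 to ACGTG over both strands, 4 of them from 2 E-boxes. The LDHA window not shown had 1 match to GCGTG and 0 to ACGTG, and the PFKFB4 window had 1 match to GCGTG. The SLC2A1 and PKM windows had no match, which says only that these letters are not in these 250 bases. ACGTG alone was at 6 of the 26 windows (18.5% of all) and the E-box at 3 (6.35% of all). These matches are letters, not sites, and nothing on the arrays measures binding.

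SLC2A1 brings glucose across the plasma membrane and was the only transporter among the 10 genes. Its probe set 201250_s_at had a signal of 99.5 on the FDFT1 array and 58.1 on the control array. The difference was 0.88 with a probe-set error of 0.31, and 1.24% of the 7837 measured probe sets with mean log2 signals from 5 to 7 were at least as high. The second probe set, 201249_at, had signals of 10.9 with FDFT1 and 4.51 with control vector. Both are below the floor, so no difference is given, although the FDFT1 signal is again the higher. With the floor at the 75th percentile of all signals (99.4), the SLC2A1 difference shrinks to 0.11, since both signals then lie at or near the floor.

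The hexokinases trap glucose in the cell, HK1 as the widely expressed form and HK2 as the form that many tumours raise. HK1 had a signal of 703 with FDFT1 and 668 with control vector on its probe set 200697_at, a difference of 0.18 with an error of 0.16. HK2 had 3 measured probe sets, which did not all lie on the same side. On 202934_at its signal was 686 with FDFT1 and 890.3 with control vector, a difference of -0.27 with an error of 0.16, and 5.35% of the 4020 probe sets with mean log2 signals from 9 to 11 were at least as low. The dimmer probe sets were at -0.18 on 239410_at (91.2 with FDFT1, 111 with control vector) and 0.05 on 222305_at (106 with FDFT1, 111 with control vector), both within their error of 0.31. None of these hexokinase differences exceeded 2 errors.

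PFKM, a phosphofructokinase subunit, catalyses the committed step of glycolysis, and PFKFB3 and PFKFB4 make or remove fructose 2,6-bisphosphate, its strong activator. PFKM had signals of 929 with FDFT1 and 983 with control vector, a centred difference of 0.02. PFKFB3, whose kinase activity far exceeds its phosphatase activity, had 566 with FDFT1 and 576 with control vector, a difference of 0.08. Both lie within their probe-set error of 0.16. PFKFB4 differed by more: on 228499_at its signal was 64.2 with FDFT1 and 119 with control vector. The difference of -0.78 had an error of 0.31, and 1.74% of the 7837 probe sets in its signal range were at least as low. Its other probe set, 206246_at, went the other way, with 8.98 on the FDFT1 array and 3.66 on the control array, but both signals are below the floor. The lower PFKFB4 value therefore rests on 1 probe set, and with the floor at 99.4 it is -0.26.

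In lower glycolysis, ENO1, enolase 1, makes phosphoenolpyruvate, and PKM turns it into pyruvate and ATP. ENO1 had signals of 9469 with FDFT1 and 9484 with control vector on 201231_s_at, and of 6565 with FDFT1 and 6993 with control vector on 217294_s_at. The centred differences were 0.10 and 0.02, with an error of 0.10. A dimmer ENO1 probe set, 216554_s_at, was at 0.22 (74.0 with FDFT1, 68.4 with control vector, error 0.31), and 240258_at was below the floor on both arrays (5.77 with FDFT1, 6.41 with control vector). As deposited, 201231_s_at and 217294_s_at were at -0.0024 and -0.09, so their sign comes from the centring.

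PKM was lower with FDFT1 on both of its probe sets. On 201251_at the signal was 887 with FDFT1 and 1359 with control vector, a difference of -0.51 with an error of 0.16. This is 3.14 errors from 0, and 0.249% of the 4020 measured probe sets with mean log2 signals from 9 to 11 were at least as low. On 213700_s_at the signal was 32.6 with FDFT1 and 42.7 with control vector, a difference of -0.28 within its error of 0.31. The annotation gives both under 1 gene symbol, and the M1 and M2 splice forms of pyruvate kinase, which differ in how they are controlled, were not told apart here.

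Pyruvate is reduced to lactate by lactate dehydrogenase, of which LDHA is the A subunit. Oxidation of pyruvate in the mitochondria falls when PDK1, pyruvate dehydrogenase kinase 1, inactivates pyruvate dehydrogenase. LDHA had signals of 8041 with FDFT1 and 8320.0 with control vector, a centred difference of 0.06 with an error of 0.10. PDK1 had 2 measured probe sets that disagreed in sign. On 226452_at the signal was 156 with FDFT1 and 149 with control vector (0.18, error 0.22), and on 206686_at it was 33.4 with FDFT1 and 49.6 with control vector (-0.47, error 0.31). The remaining PDK1 probe set, 239798_at, lay below the floor at 9.29 with FDFT1 and 8.61 with control vector. No direction for PDK1 can be given from these probe sets.

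**Figure D3:**
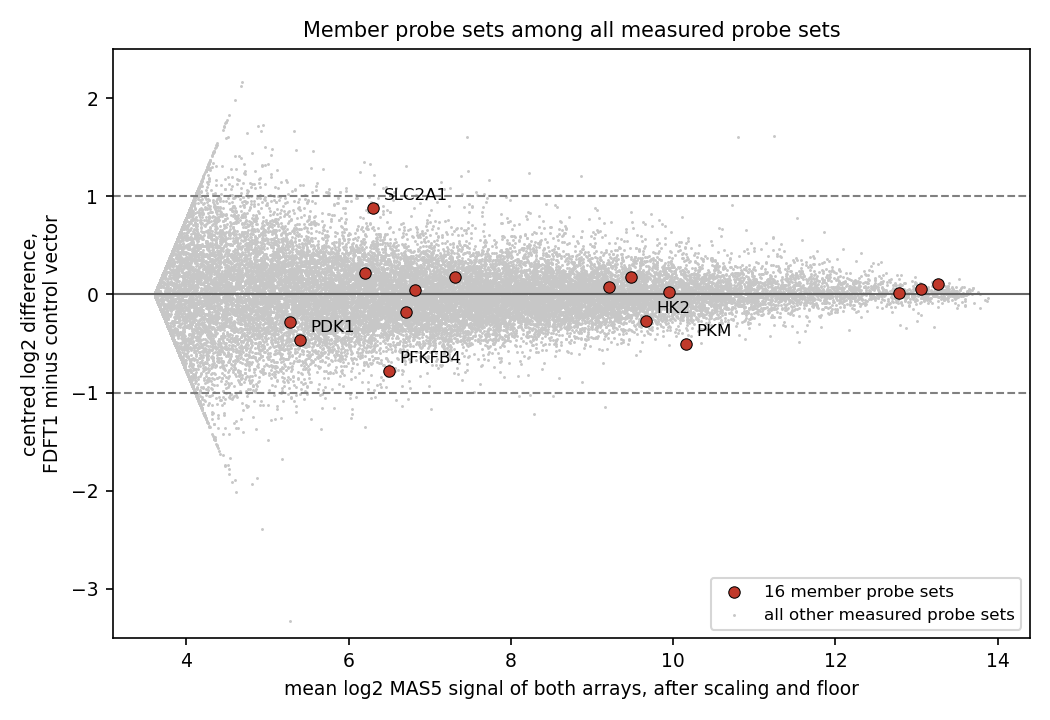
Centred log2 difference (FDFT1 minus control vector) against the mean log2 signal of both arrays for all 29891 measured probe sets, in grey, with the 16 member probe sets in red and dashed lines at 2-fold. The grey cloud narrows with signal, so PKM at -0.51 lies nearer to its edge than PDK1 at -0.47 does.

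The other genes of the pathway were compared on the brightest measured probe set of each gene, in 11 lists with 103 genes, of which 76 were measured. Their median was 0.02, with 41 above 0 and 35 below, beside 0.00 over all 13106 measured genes. None was at least 2-fold higher (0.656% of all measured genes) or lower (0.649%). At 1.5-fold, 3 were higher (4.14% of all) and 0 were lower (3.4% of all). As deposited, the split was 26 above 0 and 50 below (65.79%), where 67.65% of all measured genes were below 0.

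The 8 measured genes of the hexose transporter list, SLC2A and SLC5A family members other than SLC2A1, had a median of 0.18. Of these, 6 were above 0, the smallest at 0.11. Among the 6, SLC2A9 had its control signal below the floor, and SLC2A8 had a second probe set at -0.29. SLC2A5, the fructose transporter GLUT5, was at 0.85 (26.0 with FDFT1, 15.5 with control vector), with an error of 0.50 at this dim signal. SLC5A2, a sodium-glucose cotransporter of the kidney, was at 0.32 (25.6 with FDFT1, 22.1 with control vector), within the same error. SLC2A3, the neuronal-type glucose transporter GLUT3, was bright on both arrays, at 4445 with FDFT1 and 4875 with control vector. Its difference was -0.03 with an error of 0.10, and its 3 probe sets ranged from -0.03 to 0.01. SLC2A6 was at 0.11 (183 with FDFT1, 183 with control vector) and SLC2A11 at -0.34, within an error of 0.50. The other measured probe set of SLC2A11 was lower, at -0.75.

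Among the remaining enzymes from hexose phosphate to lactate, the bright genes were close to 0 on their brightest probe sets. In the 10 genes of these lists and the members that had a mean log2 signal over 11, a grouping made after the values were seen, differences ran from -0.15 (GPI, glucose-6-phosphate isomerase) to 0.10 (ENO1). GAPDH, glyceraldehyde-3-phosphate dehydrogenase, was at 0.07 (9570.3 with FDFT1, 9835 with control vector) and ALDOA, aldolase A, at -0.03 (6767 with FDFT1, 7438 with control vector). PFKP, the platelet-type phosphofructokinase, was at -0.08 and LDHB, the B subunit of lactate dehydrogenase, at -0.08, each within an error of 0.10. PKM, with a mean log2 signal between 9 and 11, was lower on its brightest probe set, at -0.51, than any of these 10 on theirs. Dimmer probe sets of some of the 10 lay further from 0. Those of PGK1 ran from -0.50 to 0.20, while ALDOA reached 0.18 and TPI1 0.42.

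Other genes of the same steps lay in lower signal ranges, with larger errors. ALDOC, aldolase C, was at -0.42 (201 with FDFT1, 289 with control vector, error 0.22) on its 1 probe set. PFKFB2, of the same family as PFKFB3 and PFKFB4, was at -0.22 with an error of 0.31, and all 3 of its measured probe sets were below 0, down to -0.61. BPGM, which makes 2,3-bisphosphoglycerate, was at 0.30 (223 with FDFT1, 194 with control vector, error 0.22), and ENO3, the muscle enolase, at 0.22 with 2 of 2 probe sets above 0. PFKL, the liver-type phosphofructokinase, had probe sets at 0.06 and -0.78. TIGAR, a phosphatase that opposes glycolysis, was at -0.04 and PFKFB1 at 0.02, while PGK2 at -0.24 had its FDFT1 signal below the floor. BSG, basigin, a chaperone of lactate transporters, was at -0.25 (777 with FDFT1, 993 with control vector, error 0.16), and LDHC was at 0.28 with its control signal below the floor.

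The 10 measured genes of pyruvate entry had a median of 0.07, with 7 above 0 and 3 below. PDP1, the phosphatase that reactivates pyruvate dehydrogenase and so opposes PDK1, had the highest difference of all 76 pathway genes. Its signal was 328 with FDFT1 and 181 with control vector, a difference of 0.96 with an error of 0.22, and its other probe set was at 0.48. PDHX, a component of the complex, was at 0.20 (error 0.16), DLD at 0.11 and PDHB at 0.08 (error 0.10 for both), where the second probe set lay below 0 for each, at -0.069 for DLD and -0.00066 for PDHB. MPC1, a subunit of the mitochondrial pyruvate carrier, was at -0.29 (252 with FDFT1, 330.4 with control vector, error 0.22). PDK2 had its brighter probe set at -0.27 and a dimmer one at 0.10.

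The 7 measured pentose phosphate genes had a median of -0.01, with 3 above 0 and 4 below; with all measured probe sets of a gene averaged, the median was 0.14. TKT, transketolase, was at -0.14 (5397 with FDFT1, 6391 with control vector, error 0.10), with 3 of 3 probe sets below 0. PGD, 6-phosphogluconate dehydrogenase, was at -0.13 (3372 with FDFT1, 3963 with control vector, error 0.10), with 2 of 2 below. RPIA was at 0.14, within its error. PGLS was at -0.13 on its brightest probe set, within its error, but 2 of its 3 measured probe sets were above 0, up to 0.61. TKTL1 at 0.61 had a control signal of 6.98, below the floor. Of the 4 measured genes of glucose sensing, TXNIP, which restrains glucose uptake, was at 0.21 with signals of 13.1 with FDFT1 and 3.32 with control vector, so its control signal was below the floor. ARRDC4 was at 0.25, within an error of 0.50, while MLXIP at 0.09 and MLX at -0.08, the glucose-responsive transcription factors, lay within theirs; the other MLXIP probe set was at -0.16, and 1 of 5 MLX probe sets was above 0.

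**Figure D4:**
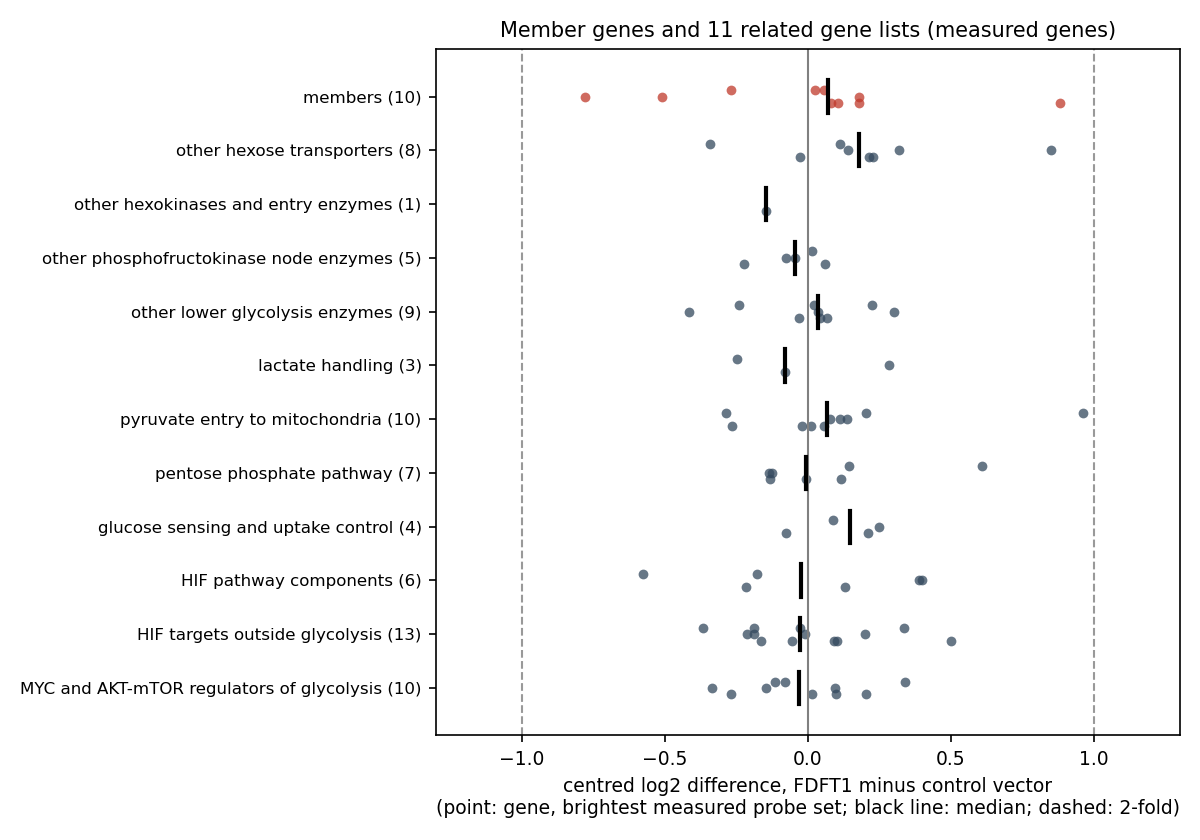
Centred log2 differences (FDFT1 minus control vector) of the measured genes among the 10 members, in red, and in 11 related lists, in blue, each gene by its brightest measured probe set; black lines are medians and dashed lines 2-fold. The list medians lie between -0.15 and 0.18, and no gene reaches 2-fold.

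Regulators known to act on glycolytic genes were compared last. HIF1A, the oxygen-regulated subunit of hypoxia-inducible factor, was at 0.13 (2747 with FDFT1, 2702 with control vector, error 0.10). Its partner ARNT was at -0.58 (315 with FDFT1, 505 with control vector, error 0.22) on the brightest probe set, but 3 of its 5 measured probe sets were above 0, up to 0.52. EGLN1, a prolyl hydroxylase that marks the factor for destruction, was at 0.39 (665 with FDFT1, 547 with control vector, error 0.16). All 4 of its probe sets were above 0, but those other than the brightest ran only from 0.01 to 0.12. EPAS1 was at 0.40 and VHL at -0.22, with an error of 0.31 for both.

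Targets of hypoxia-inducible factor outside glycolysis were spread around 0, with 5 above and 8 below among 13 measured and a median of -0.03. ANKRD37 was at -0.37 and EGLN3 at 0.50, the second of these with a control signal below the floor. SLC6A8, the creatine transporter, was at -0.21 with 3 of 3 probe sets below 0. ANGPTL4 was at 0.34 on a dim probe set, with its other at 0.66. BNIP3, a mitophagy receptor, was at -0.03 (1655 with FDFT1, 1817 with control vector), with its other probe set at -0.22. P4HA2 was at 0.10, with its other measured probe set at 0.32. SLC2A1 and PFKFB4, both known targets of the factor, lay on opposite sides of 0, at 0.88 and -0.78. Each value rests on 1 dim measured probe set, and whether the factor had a part in them was not tested.

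The 10 measured MYC and AKT-mTOR genes had a median of -0.03, with 5 above 0 and 5 below. MYC was at 0.10 (1479 with FDFT1, 1488 with control vector, error 0.16). AKT1, a kinase that promotes glucose uptake, was at -0.27 (179 with FDFT1, 233 with control vector, error 0.22). AKT2 was at -0.34, where 4 of 6 measured probe sets were below 0 and those other than the brightest ran from -0.92 to 0.07. RHEB, an activator of mTOR, was at 0.01 on its brightest probe set, while its other measured probe sets ran from -0.30 to 0.49. STK11 was at 0.20 within its error of 0.31, with other probe sets at -0.28 and 0.16. MYCN at 0.34 had a control signal below the floor.

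**Figure D5:**
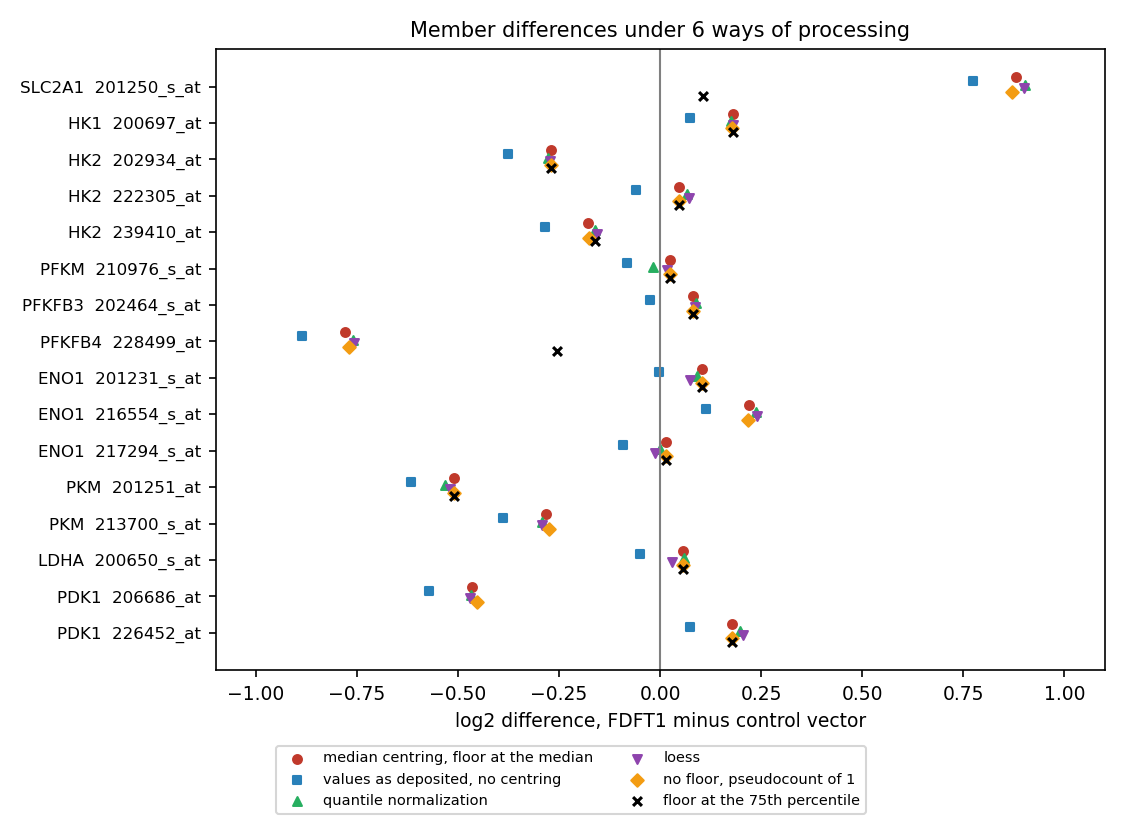
Log2 differences (FDFT1 minus control vector) of the 16 measured member probe sets under 6 ways of processing, 1 symbol each. Values as deposited, blue squares, lie lower by the shift of the centring, and the higher floor, black crosses, draws SLC2A1 to 0.11 and PFKFB4 to -0.26, while PKM 201251_at stays between -0.62 and -0.51.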

How the data were processed

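The authors deposited 1 signal intensity per probe set and array on a linear scale, made with MAS5 per the submitters' processing notes. This method subtracts mismatch signals and applies 1 scale factor to an array, so a shift between arrays can remain. No source used here states its version, scaling target or detection calls. The number of arrays limits the precision.

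All later steps used numpy 2.4.6, pandas 2.3.3 and statsmodels 0.14.6 under Python 3.11.15. The 62 control probe sets were left out of scaling and counts, leaving 54613. Signals of the FDFT1 array were scaled by the median log2 difference over probe sets at or above the floor on both arrays, then values below the floor were set to it, then log2 was taken. A difference against a value below the floor is smaller than the signals give. Genes came from the platform annotation: 41091 probe sets had 1 gene, 1801 several and 11721 none; 41037 matched the GRCh38.p14 gene table, and 0 symbols were updated.

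The probe-set error comes from genes whose 2 brightest probe sets share a signal range; it is the SD of the gap between their differences, divided by the square root of 2 (219 to 893 genes a range). The members and lists were chosen with earlier results of these data known. Named genes were all members and, of each list, up to 2 with the largest difference above 0, up to 2 below 0 and the 2 brightest; others are named as examples chosen after their values were seen. A comparison of member proteins was not made. Alternatives were other scalings (none, quantile, loess), floors, a 1.5-fold rule, averaging all probe sets of a gene, and leaving out _x_at and _s_at probe sets. The scaling, floor and counting were tested on simulated data. The planted changes were larger than any member difference and lay in probe sets brighter than those of SLC2A1 and PFKFB4. The test therefore does not cover differences as small as those of the members.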

Additional observations from a re-analysis of the deposited data

How the results depend on the processing

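No member probe set reached 2-fold under the quantile, loess and higher-floor alternatives or without centring. Counting at 1.5-fold gave 1 higher (SLC2A1) and 1 lower (PFKFB4) in place of 0 and 0. Without a floor (pseudocount of 1), 2 member probe sets were at least 2-fold higher. They were the SLC2A1 and PFKFB4 probe sets with all signals below the floor. Among the genes of the 11 lists, 6 were higher and 4 lower in place of 0 and 0. The share of all probe sets or genes past 2-fold was not computed without a floor, so these counts have no background beside them. Without centring, the member median moved to -0.070, beside -0.098 over all measured probe sets. That of the 11 lists moved to -0.088, beside -0.1055 over all measured genes. Averaging all measured probe sets of a gene left the median of the 11 lists at 0.02 but moved those of the pentose phosphate, HIF component and MYC and AKT-mTOR lists above 0, to 0.14, 0.07 and 0.06. Leaving out _x_at and _s_at probe sets kept 53 genes, with a median of 0.09 over the 11 lists and of 0.13 for the HIF components; neither alternative gave a gene at least 2-fold higher or lower. Of the 16 measured member probe sets, 10 kept their sign under every alternative that measured them and 6 did not; the SLC2A1, PFKFB4 and PKM values kept theirs. The probe sets that changed sign were ENO1 201231_s_at and 217294_s_at, HK2 222305_at, LDHA, PFKFB3 and PFKM, with values between -0.09 and 0.10. No paired analysis was possible because each group holds 1 array, and for the same reason no replicate could be left out. Dim signals limit SLC2A1 and PFKFB4, whose differences shrink to 0.11 and -0.26 under the higher floor by its construction.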

Other observations

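The array carries control probe sets for GAPDH, which were left out of the comparisons. The 3′, middle and 5′ probe sets had signals of 9672, 8788 and 9622 on the FDFT1 array and 10061, 9174 and 10490.3 on the control array. Their centred differences were 0.05, 0.04 and -0.02, beside 0.07 for the brightest GAPDH probe set of the main comparison. The corresponding ACTB control probe sets were all at -0.01.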
